A study of Homo sapiens with 9 samples.

Results

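Intronic poly(A) sites are 3′ ends at which a transcript that began at the promoter of a protein-coding gene was cleaved and polyadenylated inside an intron of that gene. They were chosen from the read pairs of TIF-Seq2, a method that turns cDNA of whole RNA molecules, from cap to poly(A) tail, into circles and sequences the joined ends. Each pair therefore gives the start and the 3′ end of 1 molecule. A pair entered when its 5′ end lay within 200 bp of the start of a protein-coding transcript of Gencode v44, its 3′ end lay in the same gene outside all of the gene's exons and over 200 bp from any annotated transcript end, fewer than 7 of the 10 genomic bases after the 3′ end were A, and the ends lay from 300 bp to 2 Mb apart. Ends within 10 bp were merged, and sites with 10 or more pairs were kept. This gave 1898 intronic sites in 1382 genes, of 22053 sites of the same minimum in 8811 protein-coding genes. The others were 15201 sites at annotated ends and 4954 elsewhere in exons.

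The cells were K562, an established human erythroleukemia line that carries the BCR-ABL1 fusion kinase and depends on it. They were exposed to 1 μM imatinib, an inhibitor of that kinase, for 24 h, or to the solvent DMSO, with 2 TIF-Seq2 libraries of each group. The deposited counts are read pairs after removal of PCR duplicates, and a library holds 3695520 (DMSO replicate 1), 5135829 (DMSO replicate 2), 4263670 (imatinib replicate 1) or 2263121 (imatinib replicate 2) of them. All groups share this 1 cell line, and the methods of the study call the libraries of a group biological replicates. Of 9 erythroid marker genes, 8 had pairs, and their sum was 10349, 13063, 31789 and 16550 pairs in these libraries, an order that is kept wherever 4 values are given. Of 9 markers of lymphoid cells, monocytes, epithelial, liver and stromal cells, 6 were at 0 in every library, and the sum of the list, nearly all of it CD3D and EPCAM, was 650, 935, 439 and 195 pairs. Imatinib replicate 2 is the shallowest library.

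An intron that holds a poly(A) signal can be cleaved before it is spliced out. The transcript then ends early, and its last exon is an exon extended into the intron or a separate terminal exon that lies wholly within it. Such transcripts can encode proteins that lack their C-terminal part, or be degraded. The U1 snRNP, which recognizes 5′ splice sites, is known to hold back cleavage in introns, and the cleavage machinery recognizes a hexamer bound by the CPSF complex a short way before the cut, which reads AATAAA in the DNA or, as its most common variant, ATTAAA. The DNA around a site shows whether that signal is present. The sequences of hg38 around 9 sites are printed here because the values below turn on them. Each run gives the 40 bases that end at the most used 3′ end and the 10 bases after it, on the strand of the gene, and capitals mark the hexamer nearest the end. The first 3 belong to sites with many pairs, the next 5 to sites with different values in the DMSO and imatinib libraries, and the last has no hexamer.
CPED1, chr7:121085360-121085409, + strand: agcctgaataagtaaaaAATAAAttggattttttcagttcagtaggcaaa
FBXL5, chr4:15667556-15667605, - strand: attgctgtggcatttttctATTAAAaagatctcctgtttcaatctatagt
SLC35B3, chr6:8429477-8429526, - strand: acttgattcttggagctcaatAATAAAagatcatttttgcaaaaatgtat
GTF2H1, chr11:18338282-18338331, + strand: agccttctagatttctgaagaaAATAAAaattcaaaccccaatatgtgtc
NMU, chr4:55598478-55598527, - strand: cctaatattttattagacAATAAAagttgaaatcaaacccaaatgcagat
CDC45, chr22:19507833-19507882, + strand: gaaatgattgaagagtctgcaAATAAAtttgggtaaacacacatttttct
BPGM, chr7:134663068-134663117, + strand: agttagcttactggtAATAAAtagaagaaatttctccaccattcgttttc
ALAS2, chrX:55022332-55022381, - strand: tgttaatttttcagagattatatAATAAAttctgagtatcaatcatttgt
ABCF1, chr6:30577875-30577924, + strand: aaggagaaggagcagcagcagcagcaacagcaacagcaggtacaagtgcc

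The poly(A) hexamer was not part of the rule, and it was common at the intronic sites. AATAAA or ATTAAA, with a site that has both counted once, lay in the 40 bases up to the end at 1442 of the 1898 sites (76.0%). The same window held one of them at 71.2% of the 15201 sites at annotated ends and at 53.2% of the 4954 other exonic sites. It held one at 16.7% of 795 intronic ends with 10 or more pairs that the limit on A had left out, which are ends where the primer could have paired with A in the genome. On the other strand, as TTTATT or TTTAAT, the hexamers lay in the same window at 12.9% of the intronic sites, and in the 40 bases after the end they lay at 3.42%. The 4 classes of ends were compared as shares of sites, with no test.

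The hexamer also lay at the usual distance. Counted back from the 3′ end, it began at a median of base 22 at intronic sites and of base 21 at annotated ends, and at 91.1% and 92.0% of the sites that had one it began between bases 15 and 30. Among the intronic ends with 7 or more A that share was 72.2%. In the CPED1 sequence above it begins at base 23, in GTF2H1 at base 18 and in CDC45 at base 19.

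**Figure D1:**
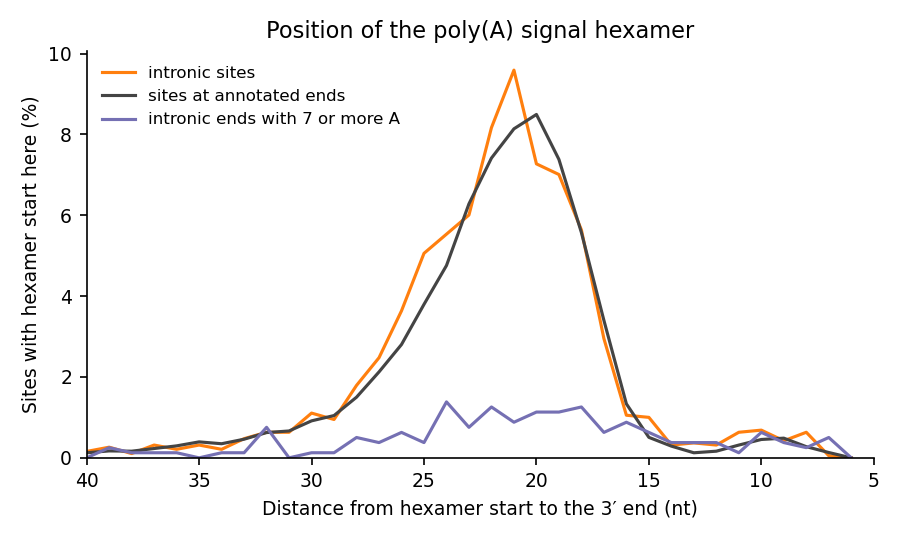
Share of sites (%) whose nearest AATAAA or ATTAAA begins at a given distance (nt) before the 3′ end, for 1898 intronic sites, 15201 sites at annotated ends and 795 intronic ends with 7 or more A downstream. The curves of the intronic sites and the annotated ends both peak between 19 and 23 nt, and the curve of the A-rich ends has no such peak.

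The limit of 10 pairs cuts through a continuous range. There were 169 intronic sites with 10 pairs and 230 with 9, and 23106 intronic ends had 1 to 9 pairs, 14812 of them a single pair. The 1898 sites held 77666 pairs, 64.1% of all intronic pairs. The hexamer share was 49.2% at ends of 1 pair, 64.9% at 2 to 4 pairs, 72.5% at 5 to 9, 73.1% at 10 to 19, 79.1% at 20 to 99 and 77.2% at 100 or more. The median site had 20 pairs, 127 sites had 100 or more, and these 127 held 42.5% of the pairs. Pairs of all 4 libraries were found at 1445 sites, of 3 libraries at 388 and of 2 at 65.

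Positions were measured in the gaps left by the exons of all transcripts of a gene together. Such a gap can be shorter than the intron of a given transcript. The exon before it can belong to a transcript other than the one that was cut. Within these gaps the sites lay towards the exon before. The median gap around a site was 5.98 kb long, the median distance from the exon before it was 751.5 bp, and 59.1% of the sites were within 1 kb of that exon. As a share of the gap, 54.7% of the sites lay in its first 20% and 7.85% in its last 20%. These positions are not particular to sites with many pairs, since single-pair ends had a median of 916 bp and A-rich ends one of 763 bp. Of the sites, 1677 lay in an intron of the gene's canonical transcript, with 367 of these in intron 1 and 221 in the last intron, and the other 221 lay in introns of other transcripts only. The median distance from the start of the RNA to the site was 14.4 kb on the genome, and 15.3% of the sites were under 2 kb from it.

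**Figure D2:**
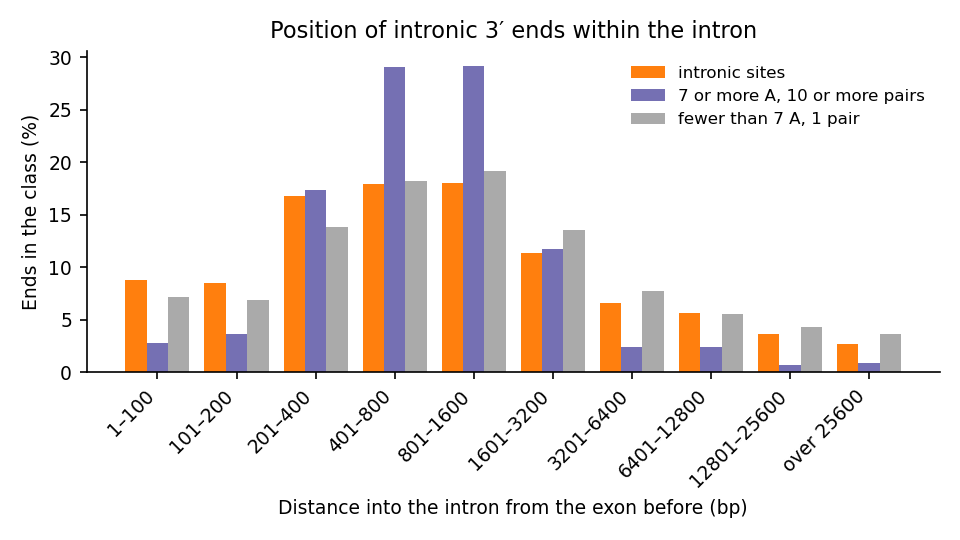
Share of ends (%) by distance from the preceding exon (bp, bins that double in width), for the 1898 intronic sites, 795 A-rich intronic ends with 10 or more pairs and 14812 intronic ends of a single pair. The preceding exon is the nearest of any transcript of the gene. Most ends of each class lie within the first 1600 bp, and the bin of 1 to 100 bp holds more of the intronic sites than of the A-rich ends.

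A small set at the exon border stood apart in sequence. Of 29 sites that ended 1 to 3 bases past an exon, 4 (13.8%) had a hexamer, against 57.9% of 19 sites 4 to 20 bases past it, 70.6% of the 119 sites that follow up to 100 bases and 79.4% of 776 sites over 1 kb away. No site lay within 3 bases of the exon that follows. The 29 sites held 3017 pairs and include 2 of the sites with most pairs, in TERF1, which binds telomeres, 2 bases past the exon, and in ABCF1, a translation factor of the ABC family, 1 base past it. The ABCF1 sequence printed above runs through a repeat of AGC, with the end at the exon border and no hexamer. How reads at exon borders were aligned was not tested as a source of these ends.

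Genes with an intronic site were longer than genes without. Among genes with 100 or more pairs, 1078 of 6105 (17.7%) held a site. Their median length was 47.0 kb against 22.4 kb for the 5027 others, with a median of 9 against 7 canonical introns and of 625 against 589 pairs. The parts of length and depth in finding a site of 10 pairs were not tested. A single site was found in 1068 genes, 2 sites in 213, and 3 or more in the others.

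The share of a gene's pairs that ended in introns was small in most of these genes and large in a few. A gene's pairs are, throughout, those that met the same limits on the 5′ end, on A after the 3′ end and on span. Over the 1078 genes the median was 5.13%, and the middle 50% of genes lay between 1.81% and 13.3%. The share was 10% or more in 344 genes, 50% or more in 63 and under 1% in 159. The full-length mRNA was longer in the genes of high share: the canonical mRNA had a median length of 5.35 kb where the share was 50% or more and of 2.57 kb where it was under 10%, and it exceeded 5 kb in 54.0% and 15.8% of them. A TIF-Seq2 molecule is copied and circularized whole, and the part of mRNA length in the shares was not tested.

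The highest share was that of FBXL5, the iron-sensing subunit of the ubiquitin ligase that degrades IRP2. Its 4 intronic sites took 99.2% and 95.6% of its pairs in the DMSO libraries and 98.0% and 97.8% in the imatinib libraries, and its canonical mRNA is 3.49 kb long. The main FBXL5 site lies outside the introns of the canonical transcript, in an intron of other transcripts only. HERC2, a very large ubiquitin ligase with an mRNA of 15.4 kb, followed with 95.4%, 100%, 100% and 85.7% of 210 pairs in all. TNRC6C, a partner of Argonaute in silencing by microRNAs, had 93.2%, 93.1%, 86.3% and 95% with an mRNA of 10.4 kb. MTF1, a transcription factor that responds to metals, had 92.3%, 87.5%, 92.9% and 100%, and STON2, an adaptor of endocytosis, had 89.5%, 95.8%, 66.7% and 66.7% with 6 pairs of the gene in each imatinib library. The STON2 site, like the main FBXL5 site, lies outside the canonical introns. In MOCOS, the molybdenum cofactor sulfurase, 6 sites summed to 91.2%, 91.3%, 86.2% and 91.8%. The groups did not overlap in MTF1, higher in imatinib, and in STON2, lower in imatinib, and they overlapped in the 4 others. MTF1 had 39, 64, 14 and 10 pairs, and its 92.3% (DMSO replicate 1) and 92.9% (imatinib replicate 1) were nearly equal. Of all sites tested for their share, both imatinib libraries lay below both DMSO libraries at 19.7% and above them at 20.9%.

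The rest of the 10 genes of highest share were ZNF429, a zinc finger gene, at 89.0% over the 4 libraries, HELQ, a DNA helicase of crosslink repair, at 85.2%, and 2 genes annotated as joining neighbouring genes, ABCF2-H2BK1 at 96.5% and FPGT-TNNI3K at 88.1%. The main site of each of these 2 lies in an exon of another gene on the same strand, as 50 of the 1898 sites do, with 3975 pairs. Such an end is intronic for 1 gene and exonic for the other, and the pairs cannot be told apart.

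The site with most pairs of all was in CPED1, a gene of little-known function, in its canonical intron 5 of 22. Its molecules mostly began at a start inside that same intron, 8.82 kb before the site, and so after the first exons of the canonical transcript. It had 163 and 222 pairs in the DMSO libraries and 889 and 390 in the imatinib libraries, 26.4% and 28.5% and then 46.4% and 44.1% of the gene's pairs. COX6C, a subunit of cytochrome c oxidase, had 324, 460, 292 and 203 pairs at a site in its last intron, 10.0%, 10.3%, 5.75% and 7.69% of the gene. The main FBXL5 site had 248, 172, 429 and 212 pairs, or 93.2%, 83.9%, 86.8% and 91.4% of the gene (95% Wilson intervals of 89.6 to 95.7%, 78.3 to 88.3%, 83.6 to 89.5% and 87.1 to 94.4%, which cover counting error only). The CPED1 shares did not overlap between the groups, nor did those of COX6C, while those of FBXL5 did.

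At the TERF1 site 53.1%, 52.1%, 59.1% and 49.4% of the pairs of the gene ended. In SLC35B3, which carries the sulfate donor PAPS into the Golgi, the site in intron 3 of 10 took 64.9%, 58.5%, 52.3% and 44.2%. In ZNF544, a zinc finger gene, the values were 65.3%, 62.6%, 63.5% and 68.8% at a site outside the introns of the canonical transcript. Of these 3 sites only that of SLC35B3 had both imatinib libraries below both DMSO libraries, and it was not called in any test.

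Lower shares came with high counts in PRMT2, a protein arginine methyltransferase, at 18.5%, 14.8%, 22.4% and 31.7%, in ABCF1 at 17.2%, 12.3%, 23.4% and 19.9%, and in PFDN6, a prefoldin subunit, at 9.38%, 7.61%, 9.24% and 9.10%. H2BC4, a histone H2B gene whose canonical transcript has no intron, had 26.2%, 42.1%, 54.0% and 32.0% at a site inside an intron of a longer transcript. The method reads only molecules with a poly(A) tail, so these are shares of such molecules and not of all RNA of the gene. The site in HBE1, the embryonic epsilon globin gene, took 3.61%, 5.29%, 1.82% and 1.47% of the pairs. It lies 165 kb from the start of the RNA and in an exon of another gene.

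**Figure D3:**
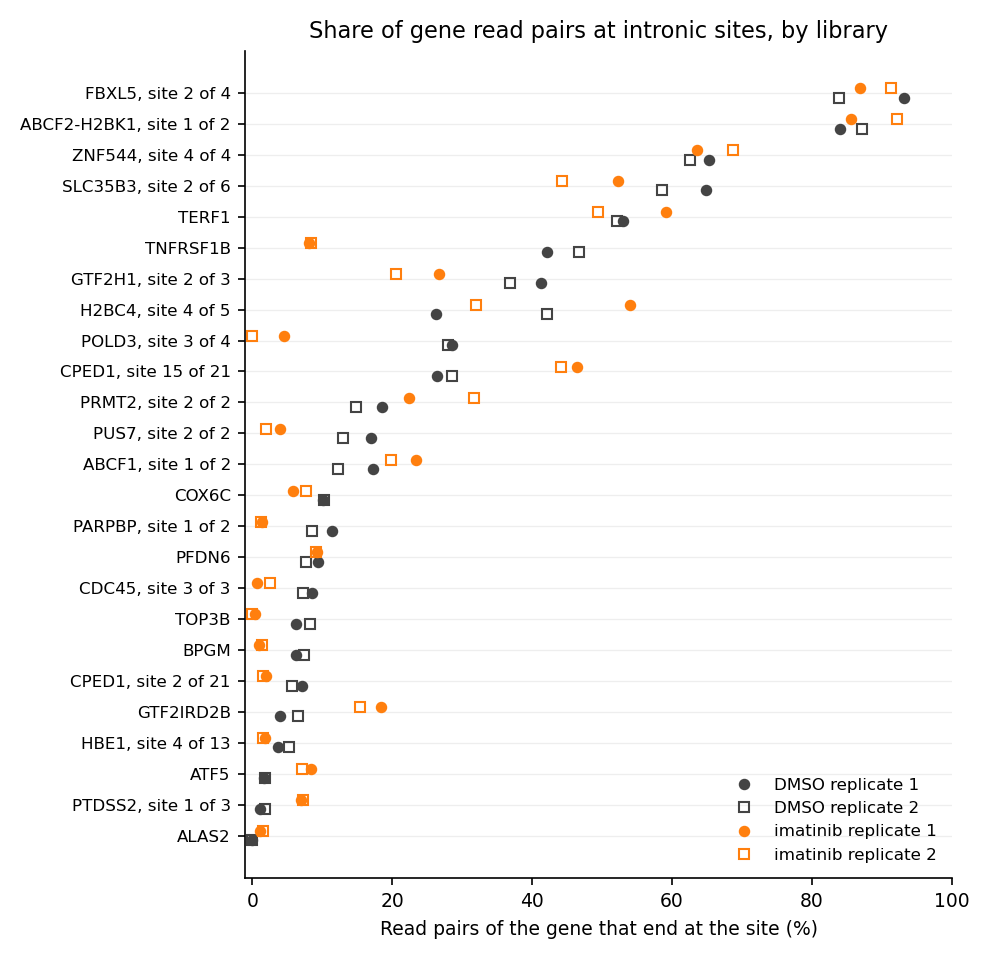
Share (%) of the read pairs of the gene that ended at the site, in each library, for the sites with most pairs and the sites named in the tests, where the gene had 20 or more pairs in every library. Filled and open symbols are replicates 1 and 2. FBXL5, ZNF544 and TERF1 have overlapping libraries, and the DMSO libraries of TNFRSF1B, BPGM and CDC45 lie above their imatinib libraries.

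Imatinib was compared with DMSO at 3 levels, the share of all intronic sites, the count at each site and the share of the gene at each site. Over the 1382 genes together, 4.36% and 4.58% of the pairs ended at intronic sites in the DMSO libraries and 4.32% and 3.66% in the imatinib libraries (95% Wilson intervals of 4.30 to 4.42%, 4.53 to 4.63%, 4.26 to 4.37% and 3.59 to 3.73%, counting error only). As a share of the pairs of all genes the values were 0.664%, 0.699%, 0.701% and 0.574%, which overlapped between the groups (exact permutation test, two-sided, p = 1). Over the 1382 genes, the difference of the group means was -0.48 percentage points (exact permutation test, two-sided, p = 0.333, the smallest p that 2 libraries against 2 allow). Averaged over the 697 genes with 50 or more pairs in every library, the shares were 7.28% and 7.27% in DMSO and 6.45% and 5.92% in imatinib, a difference of -1.09 points (exact permutation test, p = 0.333). Over the 127 sites of 100 or more pairs the median shares of 18.2%, 16.6%, 18.4% and 12.8% overlapped between the groups. DMSO gave 59.7% of the pairs at the chosen sites and 58.7% of all gene pairs. The median distance between the ends of a pair was 9.88 and 9.98 kb in DMSO and 9.87 and 9.49 kb in imatinib, lowest in imatinib replicate 2, and its part in the shares was not tested.

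The pairs at each site were then tested with edgeR's quasi-likelihood test over all 12515 sites, of any class, that passed a filter on low counts. The filter left 478 of the 1898 intronic sites, so the 1420 others were not tested, and since a site that is high in only 1 group can pass it, counts over those tested are a description. Of the 478, 41 were called at an adjusted p under 0.05 (8.58%), against 6.18% of all sites tested. Of these, 22 were higher after imatinib (4.60%, against 3.75% of all sites) and 19 were lower (3.97%, against 2.44%). The number depends on single libraries: it was 138 without imatinib replicate 2 and 21 without DMSO replicate 2.

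Of the 22 sites that rose, 18 lie in genes whose total also rose. The gene totals contain the pairs of the site, and 12.9% of all genes tested had a changed total. SLC4A1, the anion exchanger of the red cell membrane, had 2 and 1 pairs at its site in the DMSO libraries and 114 and 53 in the imatinib libraries, a ratio of imatinib to DMSO, relative to all gene pairs, of 79.0 (exact 95% interval 26.6 to 387, adjusted p = 0.00482 by edgeR). Exact intervals of a ratio, here and below, cover counting error only and not the spread between libraries. The whole gene had 2, 2, 391 and 69 pairs. ALAS2, the erythroid enzyme that begins heme synthesis, had 0, 0, 19 and 12 pairs at its site, at least 14.7-fold higher against a floor of 3 pairs over the group (adjusted p = 0.0130, edgeR). Its gene total of 89, 145, 1719 and 806 pairs rose as well, and the site took 0 of the pairs in DMSO, which allows up to 3.37% and 2.07%, and 1.11% and 1.49% in imatinib. A difference in its share was thus not detectable at this depth.

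GATA5, a transcription factor, had 0, 0, 16 and 11 pairs at its site, at least 12.8-fold higher (adjusted p = 0.0147, edgeR), with 1 pair of the gene in DMSO. CPED1 had the second smallest p of the sites that rose: its site in intron 5 rose by 2.24 ± 0.30 on the log2 scale (SE, adjusted p = 0.0101) and its gene total by 1.45 ± 0.27. In these 4 genes both imatinib libraries had more pairs at the site than both DMSO libraries, an order that adds no support because the sites were picked by these same counts.

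Other sites that rose, chosen after their values were seen, followed the gene closely. In TFR2, the receptor for transferrin of erythroid cells and liver, the site had 17, 34, 116 and 51 pairs, or 37.8%, 52.3%, 36.7% and 38.3% of the gene. In ABRAXAS1, a subunit of the BRCA1-A complex, 60, 84, 242 and 120 pairs were 34.7%, 35.9%, 30.1% and 30.2%. The log2 fold changes of these sites were 2.26 and 1.86, beside 2.48 and 2.04 for their gene totals.

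Of the 19 sites that fell, 10 lie in genes whose total also fell and 9 in genes whose total was not called. PUS7, a pseudouridine synthase, had 27, 40, 2 and 1 pairs at a site 90 bases into intron 10 of 15, a ratio of imatinib to DMSO of 0.0635 (exact 95% interval 0.0128 to 0.194 for counting error only, adjusted p = 0.0150, edgeR). GTF2H1, a subunit of the general transcription factor TFIIH, had 171, 220, 36 and 26 pairs 47 bases into intron 4 of 14 and fell by 2.07 ± 0.37 (adjusted p = 0.0195), with shares of 41.3%, 36.9%, 26.7% and 20.5%. Leaving out DMSO replicate 1 ended the call of GTF2H1. The totals of both genes fell too.

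The 9 sites that fell in genes whose total was not called were named after their values were seen. CDC45, a subunit of the replicative helicase, had 98 and 154 pairs in DMSO and 12 and 20 in imatinib at a site 8 bases into intron 12 of 18, and fell by 2.27 ± 0.52 (SE, log2, adjusted p = 0.0388, edgeR). The gene total was 1141, 2137, 1656 and 797 pairs, a log2 fold change of 0.10 ± 0.26. POLD3, a subunit of DNA polymerase delta, had 16, 24, 2 and 0 pairs beside 56, 86, 44 and 30 for the gene. TOP3B, a topoisomerase, had 12, 26, 1 and 0 pairs beside 194, 316, 295 and 167 for the gene, a ratio of 0.0373 at the site (exact 95% interval 0.000921 to 0.221, counting error only). PARPBP, a regulator of homologous recombination, had 16, 21, 2 and 1 pairs. In each of these 4 genes both imatinib libraries had fewer pairs at the site than both DMSO libraries, in counts not scaled for depth. The sites were picked by these same counts, so this order adds no support.

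The other 5 were NMU, which encodes the peptide neuromedin U, CUTC, a copper-binding protein, SYK, a kinase of immune receptor signalling, GRAP2, an adaptor of receptor signalling, and ZNF595, a zinc finger gene. NMU had 170, 197, 39 and 29 pairs and fell by 1.85 ± 0.37 (adjusted p = 0.0282, edgeR). Its gene total of 1648, 1846, 818 and 694 pairs had a log2 fold change of -0.65 ± 0.30. The 4 sites that rose in genes whose total was not called were in PRMT2, GTF2IRD2B, TBC1D22B and OGG1, the glycosylase that removes oxidized guanine. PRMT2 had 93, 128, 281 and 161 pairs and rose by 1.56 ± 0.32 (adjusted p = 0.0284). GTF2IRD2B, which has a nearly identical copy in the genome and is uncertain for that reason, had 8, 12, 89 and 21 pairs.

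**Figure D4:**
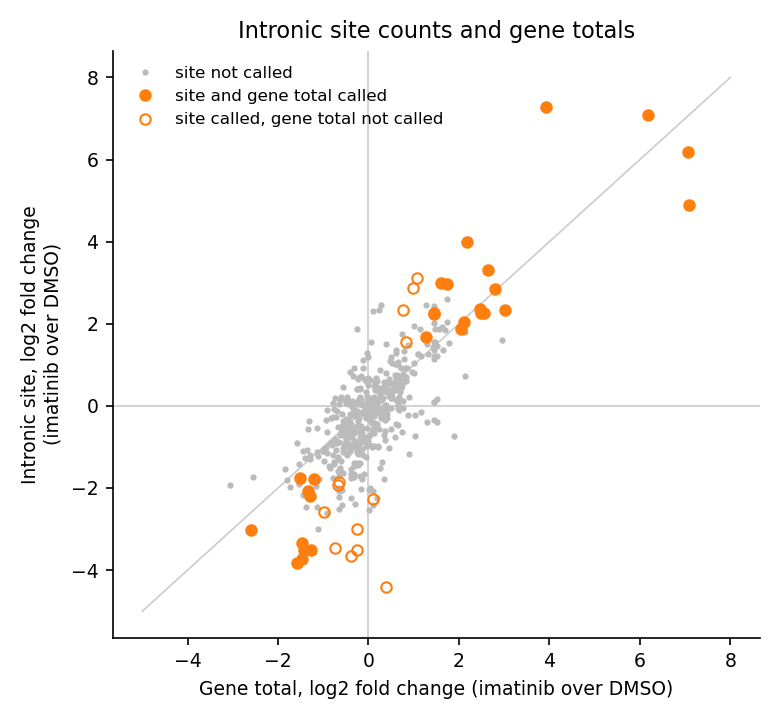
Log2 fold change, imatinib over DMSO, of the 478 intronic sites tested (vertical axis) and of the totals of their genes (horizontal axis), from edgeR. Filled orange circles are the 28 sites called together with their gene, open orange circles the 13 called without it, and the grey diagonal marks equal change. All 19 called sites that fell lie below it and 14 of the 22 that rose lie above it. These sites were picked by their change on the vertical axis, so their side of the diagonal is no test.

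Whether a site took a different share of its gene was tested directly, by comparing the pairs at the site with those elsewhere in the gene between the groups in 1 edgeR fit of 9401 sites. No site of any class was called, 0.0% of those tested, and the smallest adjusted p was 0.400. At an unadjusted p under 0.05 there were 77 of 449 intronic sites (17.1%), against 8.5% of all sites. Of these, 62 were lower and 15 higher in imatinib. DESeq2 called 1 intronic site, in BPGM, and 8 of all sites. Without imatinib replicate 2, edgeR called 1 intronic site, in CDC45. The calls of the count test above are therefore not shown to differ from those of their genes. The absence of calls does not show that shares were equal.

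In direction, most intronic sites tested had a lower share in imatinib. The median log2 change of the share was -0.32 over the 449 intronic sites and 0.01 over all sites, and it was 0.06 at annotated ends and -0.07 at other exonic sites. Both imatinib libraries lay below both DMSO libraries at 163 of the 449 sites (36.3%, against 19.7% of all sites) and above them at 52 (11.6%, against 20.9%). The 1449 intronic sites that did not pass the filter or the minimum of 10 other pairs are not in these counts.

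The sites with the smallest p of the share test, named after their values were seen, give the size of what was measured but not called. BPGM, which makes the 2,3-bisphosphoglycerate of red cells, had 6.17% and 7.42% of its pairs at the site in DMSO and 0.874% and 1.30% in imatinib (95% Wilson intervals of 4.14 to 9.08%, 5.27 to 10.3%, 0.521 to 1.46% and 0.662 to 2.55%, counting error only). The site had 23, 31, 14 and 8 pairs, a log2 fold change of -0.73 that was not called, while the gene rose from 373 and 418 to 1602 and 614 pairs. TNFRSF1B, a receptor for TNF, had 42.1%, 46.7%, 8.11% and 8.33%, with no hexamer in its window. CDC45 had 8.59%, 7.21%, 0.725% and 2.51%. POLD3 had 28.6%, 27.9%, 4.55% and 0%, where a count of 0 of 30 pairs allows up to 10.0%. TOP3B had 6.19%, 8.23%, 0.339% and 0%, which allows up to 1.80%, and PARPBP had 11.4%, 8.57%, 1.42% and 1.23%. The groups did not overlap in any of these 6 sites, which were picked by that test.

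Fewer sites lay on the higher side. PTDSS2, a phosphatidylserine synthase, had 1.15%, 1.76%, 6.99% and 7.27%. ATF5, a transcription factor of the stress response, had 1.64%, 1.82%, 8.39% and 7.14%, and GTF2IRD2B had 3.92%, 6.49%, 18.4% and 15.4%. The log2 changes of the share were 2.26 ± 0.56, 2.22 ± 0.55 and 1.91 ± 0.47 (SE).

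CPED1 holds the most intronic sites of any gene, 21, and its sites did not move together. At site 15 in gene order, the one with most pairs, the share was 26.4% and 28.5% in DMSO and 46.4% and 44.1% in imatinib. At site 20, which has no hexamer in its window, it was 18.5%, 16.6%, 5.07% and 8.60%, and at site 2 it was 7.13%, 5.65%, 1.93% and 1.47%. The count at site 20 was 114, 129, 97 and 76 pairs, and at site 14 it was 42, 52, 277 and 65 pairs, which was called higher (adjusted p = 0.0295, edgeR). The share was thus higher in both imatinib libraries at site 15 and lower in both at sites 2 and 20, and the share test called none of the 3. The sites belong to 2 starts of the gene: molecules of sites 1 to 6 mostly began at the upstream start near chr7:120988817 and those of the 15 others at an internal start at chr7:121076578. The internal start lies within canonical intron 5, chr7:121064314-121097698, which also holds site 15. Pairs within 200 bp of the internal start made up 76.8% and 75.5% of the gene in DMSO and 90.4% and 87.0% in imatinib. Among those pairs alone, site 15 took 30.6%, 34.4%, 47.7% and 46.0%, and site 20 took 22.2%, 19.2%, 5.55% and 9.36%, so these 2 differences were also present among molecules of the same start. Pairs of the upstream start made up 15.6%, 16.6%, 7.37% and 10.2% of the gene. Among them site 2 took 26.0%, 26.4%, 19.9% and 10.0%, a smaller difference than in its share of the gene. The part of start use in the share of site 2 was not tested. These comparisons were chosen after the values were seen and have no test of their own.

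**Figure D5:**
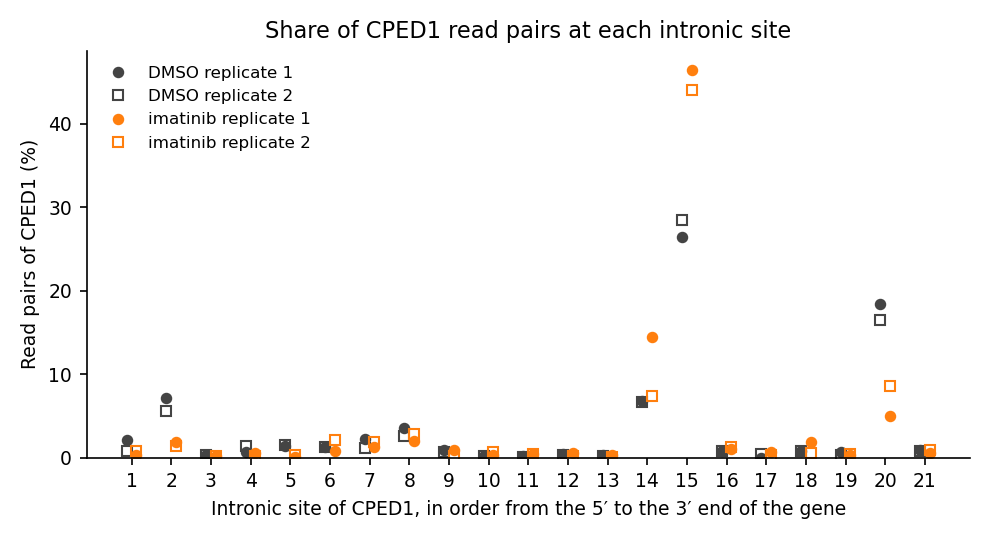
Share (%) of the read pairs of CPED1 that ended at each of its 21 intronic sites, numbered from the 5′ to the 3′ end of the gene, in each library. Site 15 is higher in both imatinib libraries, and sites 2 and 20 are higher in both DMSO libraries.

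Of 22 cleavage and polyadenylation factors, 17 had 100 or more pairs and 3 held a site, with shares of 0.604% to 1.91%. Over all genes with 100 or more pairs, 17.7% held one. CSTF3, a subunit of the cleavage stimulation factor known for a poly(A) site in an early intron of its own gene, had 11, 24, 15 and 7 pairs at a site in intron 3 of 20, or 1.33%, 2.31%, 1.92% and 2.11% of the gene. CPSF6 and NUDT21, the subunits of cleavage factor Im, had 12, 3, 14 and 3 pairs and 4, 6, 4 and 1 pairs. Of 25 elongation, U1 snRNP and termination factors, 1 held a site. CTR9, of the PAF1 complex, had 39, 26, 19 and 11 pairs at a site 56 bases into intron 3 of 24, or 41.9%, 19.3%, 23.2% and 19.6%. Of the 5 sites of these 2 lists, 3 were tested for their count and none was called, and the shares overlapped between the groups in each of the 4 genes other than NUDT21, where they were 1.30%, 1.32%, 1.23% and 0.610%.

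Of 30 DNA repair genes, 6 held a site. WRN, the helicase of Werner syndrome, had 46, 68, 51 and 22 pairs, 86.8% and 90.7% of the gene in DMSO and 59.3% and 73.3% in imatinib. The share test did not call this site (log2 change -2.11 ± 0.59, SE, adjusted p = 0.421, edgeR). Both imatinib libraries lay below both DMSO libraries at 19.7% of all sites tested for their share. CHEK1 and RAD50 had 25 and 15 pairs in all, and PMS1 had 22, which was 17.1% of its pairs. Of 30 chromatin regulators, 6 held a site of 10 to 15 pairs, among them KDM2A at 15.0% of 100 pairs and HDAC2 at 0.383% of 3133. The count test covered 1 of the 7 sites of the DNA repair genes, which was not called, and none of the 6 sites of the chromatin regulators. Of 29 receptor tyrosine kinases and their adaptors none held a site, but 4 of these genes had 100 or more pairs and 13 had none, so little could be seen there. Of the 9 erythroid markers, HBE1 held 13 sites. The count test covered only 5 sites of this list, so most HBE1 sites were not tested, and none of the HBE1 sites was called.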

How the data were processed

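The authors trimmed the reads with cutadapt 1.16, aligned both ends to hg38 with STAR 2.5.3a, removed PCR duplicates by UMI and deposited raw counts of read pairs for each combination of 5′ and 3′ position. No normalization or filter on internal priming had been applied to these counts. Here pairs were assigned to the gene with the nearest start. Shares use the pairs of a gene that end in it or up to 200 bp past its end. These pairs also met the limits on the 5′ end, on A after the 3′ end and on span. Pairs with 7 or more A, 8.14%, 8.27%, 9.80% and 7.82% of all pairs of the 4 libraries, are thus in no share, also where they ended at an annotated end. Members and lists were chosen with earlier results of these data known. Counts and shares were tested with edgeR 4.0.16 (quasi-likelihood, filterByExpr, adjusted p under 0.05). Counts were scaled by TMM, while the share fit took the gene pairs of each library as its size. The share fit had 2 columns for each library, with a minimum of 10 other pairs in the gene. DESeq2 1.42.0 was an alternative. Both fits were tested on simulated data, where the share fit recovered fewer of the changes of a given fold than the count fit. The text names the 12 sites with most pairs (1 for each gene), the 10 genes of highest share with 100 or more pairs, the 4 higher and 4 lower count calls of smallest p, and listed genes with a site, up to 5 a list. Share calls would have been named too, but there were none. Some results of these kinds are not reported here. Other genes were named after their values were seen. Replicate counts differed by a chi-square per degree of freedom of 8.37 (DMSO) and 14.6 (imatinib), so no library was a copy. Long-read transcript models were not used.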

Additional observations from a re-analysis of the deposited data

How the results depend on the processing

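The number of intronic sites lay between 1394 and 1933 under each alternative rule but one: asking for 20 or more pairs left 953. The pooled share of 4.32% over the 4 libraries was 5.04% with fewer than 5 A, 5.79% with 20 or more pairs and, chosen after seeing the data, 10.6% with sites of 100 or more pairs. The difference of the share between imatinib and DMSO was negative in all 10 alternatives, and 2 libraries against 2 cannot reach a p under 0.333 by the exact permutation test. In 4 of them (fewer than 5 A, 20 or more pairs, the longer distance from a transcript end, and a pair in each library) imatinib replicate 1 lay above DMSO replicate 1, and the exact permutation test gave p = 0.667. Of the 41 intronic sites called by their count, 27 were among the 29 that DESeq2 called. Without a filter on low counts 64 were called, and leaving out 1 library gave 21 to 138 calls and 0 to 1 calls of a share, where DESeq2 called 1. The cause of these differences was not tested. The labels do not say whether libraries of the same replicate number were made together, so pairing is unknown. The replicate differences of DMSO and imatinib had a correlation of -0.32. With the replicate number as a block, 17 sites were called by count and 0 by share. With crossed numbers as the block, added after seeing the data, 120 sites were called by count and 43 by share. Of the 6 sites named by the count test, GTF2H1 lost its call with DMSO replicate 1 left out, and the others kept theirs in each setting in which they were tested. Depth limits the shares: 1449 of 1898 intronic sites were not tested for their share.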
